A study of Arabidopsis thaliana with 8 samples.

Results

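The genes described here are high at the base of the inflorescence stem in wild type Arabidopsis thaliana and have a much smaller base-to-tip difference in the cov mutant. They were chosen from measured values. On log2(signal + 12), a gene had to be at least 2 units higher at the base than at the tip in wild type, and its base minus tip difference in cov had to be at most 0.5 times the wild type value. It also needed a mean signal of at least 50 over the 8 arrays and a probe set (a group of short probes for one transcript) assigned to exactly 1 gene. Of 22810 probe sets on the ATH1 array, 6050 had 1 gene and enough signal, 211 of those were base-high in wild type, and 58 of the 211 met the rule. Each of the 58 probe sets stood for a different gene. The base minus tip difference is called the gradient below.

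The 4 groups were the base of the cov stem, the tip of the cov stem, the base of the stem of the wild type Ler-0 (stock NW20), and its tip, with 2 arrays each. The plants were at growth stage 6.10 and had grown in compost at 22 °C and 65% humidity under 24 hours of light, with the insecticide Intercept as the treatment common to all groups. The labels give neither the allele nor the background of cov, so an effect of the mutation and a difference of background from Ler-0 cannot be told apart. Nothing in the labels says whether replicate arrays came from separately grown plants, so the p-values measure only the spread between these samples, which may be technical. The number of arrays limits the precision.

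An inflorescence stem matures from tip to base. Cells near the tip divide and elongate, and toward the base the vascular bundles and the fibres between them lay down thick secondary walls of cellulose, xylan and lignin. Genes with more transcript at the base therefore include those of wall thickening, but also those of any process that follows age or exposure, such as stress and defence responses. The cov mutant lacks function of COV1, an integral membrane protein, and is known for extra vascular tissue in the stem in place of well spaced bundles. In whole stem pieces, fewer cells of a type and less RNA per cell cannot be told apart.

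COV1 had no named probe set and was not analysed here, so the genotype labels were not checked against it. The arrays were comparable in scale. Median signal lay between 41.4 and 50.1, with the lowest on wild type base array 1, and replicate arrays correlated at r = 0.959 to 0.978 across the 15923 tested probe sets, which are not independent replicates. Few defining markers had a named probe set, 25 of 187 listed loci, so the tissue check is thin. The xylan genes IRX15, IRX15-L and GUT2 were higher at the base in both genotypes, with summed signals of 1235 and 1759 at the cov base, 224.9 and 228.4 at the cov tip, 2902 and 2316 at the wild type base, and 170.2 and 189.3 at the wild type tip. The sole tested entry of the anther list, AT5G07230, was at 912 and 784 in cov tips and 769.7 and 1077 in wild type tips, with at most 9.9 at either base, so tip pieces of both genotypes carried flower transcript. Phloem had 1 tested marker, the sucrose exporter gene SWEET11, at 943.5 and 853.8 against 469.8 and 211.3 at the base and 609 and 870.7 against 200.3 and 251.5 at the tip (cov against wild type). SWEET11 thus moved with genotype in both parts of the stem. The 5 tested genes of the procambium and vascular list summed to 723.4 and 825.8 at the cov base and 600.6 and 602.1 at the cov tip, against 482.5 and 517.9 at the wild type base and 521.5 and 562.9 at the wild type tip. CLE41, a signalling peptide gene of the vascular bundle, and LHW, a vascular transcription factor gene, were higher at the cov base by 0.70 and 0.93 on the log2 scale (limma adjusted p = 0.0329 and 0.0152). The part of these markers in the differences below was not tested.

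Among the 58 genes the median signal was 216 and 164.6 on the cov base arrays and 71 and 90.8 on the cov tip arrays. In wild type it was 386 and 300.6 at the base and 36.6 and 45.5 at the tip. The cov arrays thus stood between the wild type base and the wild type tip at both ends. The cov gradient ranged from -0.13 to 2.59 with a median of 1.10, and the wild type gradient from 2.0 to 5.45 with a median of 2.77, as the rule required. In 53 of the 58 both cov base arrays were still above both cov tip arrays, against 34.1% of all tested probe sets and all 153 base-high genes that kept their gradient. The other 5, where cov base and tip overlapped, were AT1G72900, CML41, AT3G61160, AT2G20142 and AT3G49790.

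**Figure D1:**
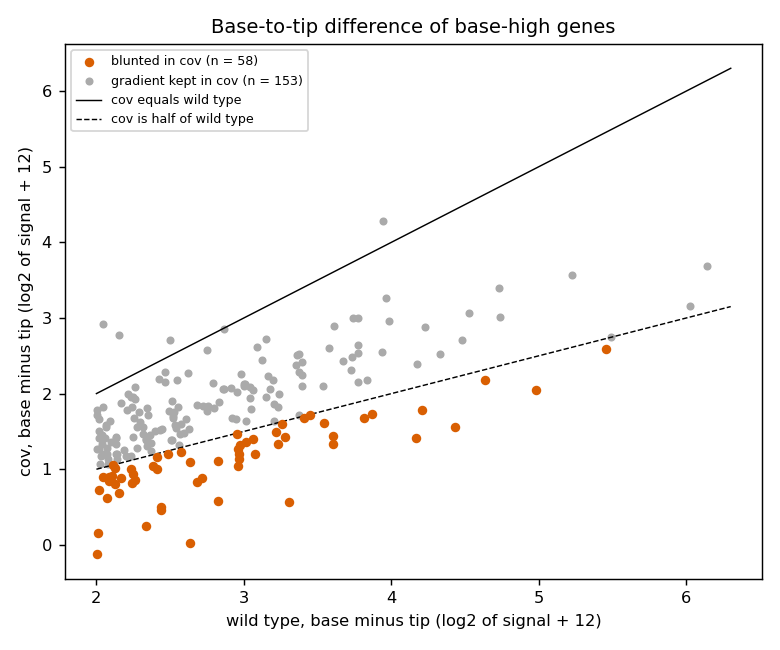
Base minus tip difference in cov (vertical) against wild type (horizontal), both on log2(signal + 12), for 58 genes with a blunted gradient and 153 that kept more than 0.5 times the wild type value; points are means of 2 arrays per group. Most points of both sets lie below the line of equality, and the 58 are by choice those on or below the dashed line.

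The rule cut through a continuous cloud. Just inside the ratio limit were AT1G49050, AT3G25930 and PPDK, at 49.9%, 49.8% and 49.5% of the wild type gradient, and just outside were BCAT4, AT5G52750 and AT1G24140 at 50.1%, 50.9% and 51.0%. Just inside the limit on the wild type gradient were AT3G61160, AT3G49790 and AT3G62730 at 2.0, 2.01 and 2.02, and just outside were AT3G18280, AT5G47530 and AT1G14200 at 1.97, 1.95 and 1.95. Counted after the data were seen, a further 48 probe sets without a gene in the annotation met the same conditions on signal, out of 254 such probe sets that were base-high in wild type. They are not named here.

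How far the choice follows replicate noise was measured on arrays it had not used. Applied to the 4 arrays numbered 1 alone, the rule picked 59 genes, whose median difference between the wild type and the cov gradient was 1.68 on those arrays and 0.94 on the arrays numbered 2. Applied to the arrays numbered 2, it picked 84 genes, with a median of 1.88 there and 1.0 on the arrays numbered 1. Only 31 of the 59 and 43 of the 84 were among the genes chosen on all arrays. The values on unused arrays therefore describe what the rule picks from 1 array per group, and not the full set itself. On the unused arrays the cov gradient was below the wild type gradient in 53 of the 59 (89.8%) and in 75 of the 84 genes (89.3%). The same held for 95.8% and 88.6% of the kept base-high genes and for 50.3% and 47.9% of all tested probe sets. It was at most 0.5 times the wild type gradient in 32 of the 59 (54.2%) and 21 of the 84 (25%), and the conditions on both gradients were met by 17 of the 59 and 17 of the 84. For the base-high genes that the same arrays had placed among the kept ones, the median on the unused arrays was 0.99 (190 genes) and 0.87 (114 genes), and 32.6% and 7.89% of them were at or below 0.5 times. A smaller gradient in cov was thus seen on unused arrays in the picked and the kept genes, by a similar median amount. The ratio to wild type was where the picked genes stood lower. With 1 array per group these are descriptions without a test.

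A smaller gradient can come from less transcript at the cov base, from more at the cov tip, or from both, and the rule does not fix which. The mean of the cov minus wild type differences at base and tip is called the mean genotype difference here. In the model of 4 group means with equal spread it is orthogonal to both gradients, and on that condition it was tested with limma. Replicate arrays were over 2-fold apart for 15.5% of members at the cov base and 0% at the cov tip. In wild type the shares were 1.72% at the base and 6.90% at the tip. Where spread is unequal, noise that helped to choose a gene can enter this mean and its p-value. The mean genotype difference was lower in cov for 9 of the 58 genes and higher in cov for 14, and 35 were not called (adjusted p under 0.05 over all tested probe sets). Over all 15923 probe sets 1.3% were lower and 3.33% were higher, 4.63% together. With each array centred on its median, the members split into 13 higher and 13 lower, and all probe sets into 408 higher and 254 lower in place of 530 and 207. Without cov tip array 1 the lower calls came to 4 and without wild type base array 1 also to 4, and the higher calls came to 9 without cov tip array 2. Calls in both directions came to 15 without cov tip array 1, against 23 on all arrays. The median mean genotype difference of the 58 was 0.07, against 0.02 over all tested probe sets, with 31 genes above 0 and 27 below. A gene that differs at one end of the stem alone changes both its gradient and this mean, so the share of calls is not read here. Under the rule, a positive mean requires cov to be higher at the tip and a negative mean requires it to be lower at the base, while the difference at the opposite end can take either sign.

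At the base itself, both cov arrays lay below both wild type arrays in 36 of the 58 genes, and 21 were called lower by limma. At the tip both cov arrays lay above both wild type arrays in 43 genes, and 20 were called higher. Of all tested probe sets, 21.1% were below without overlap at the base, where limma called 2.12% lower and 3.43% higher (5.55% together). At the tip 22.8% were above and 20.1% below without overlap, and limma called 1.41% higher and 0.408% lower (1.82% together). The base and tip differences themselves differed by limma in 37 of the 58, where 1.04% of all tested probe sets were called in that direction and 1.11% in the other. The rule used the difference between these contrasts, so nothing is read from these counts. The median cov minus wild type difference was -0.67 at the base and 0.87 at the tip on the log2 scale.

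**Figure D2:**
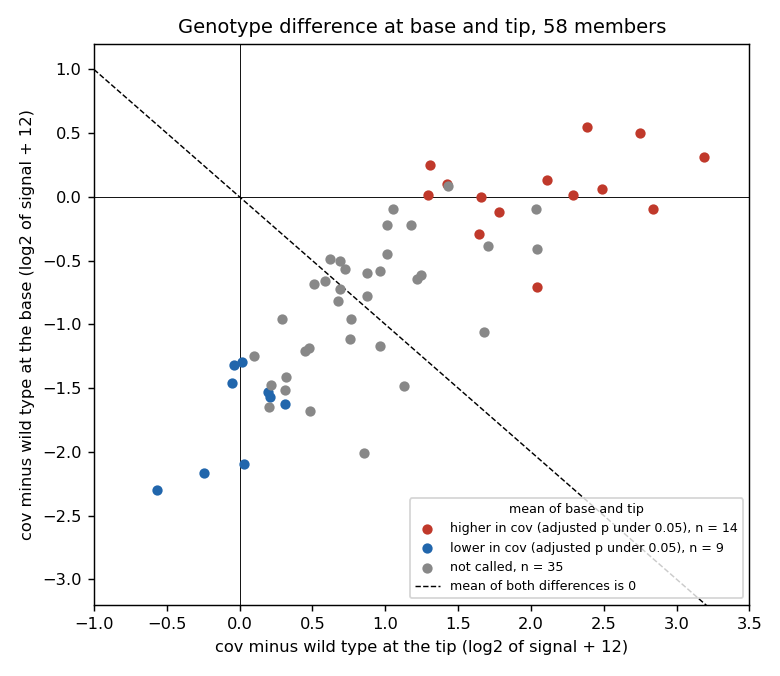
Difference of cov from wild type at the base (vertical) against that at the tip (horizontal), on log2(signal + 12), for the 58 genes; colours give the limma call of the mean of both. The 9 genes lower in cov sit between -0.57 and 0.31 at the tip and between -2.30 and -1.29 at the base, and the 14 higher in cov sit between 1.30 and 3.19 at the tip and between -0.71 and 0.55 at the base.

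The 9 genes that were lower in cov were below wild type at the base, as the rule and a negative mean together require. At the tip, which is not fixed in this way, 6 of them overlapped, 2 were below and 1 above. Over all tested probe sets 20.1% were below and 22.8% above there without overlap, so nothing is read from these counts. HAT2, a homeodomain-leucine zipper gene that auxin induces, had signals of 132 and 148 at the cov base and 57.6 and 66.3 at the cov tip, against 612 and 735 at the wild type base and 74.3 and 77.0 at the wild type tip. Its level at the cov base was far below that of wild type, and the tips lay close together with the cov arrays slightly below. The mean genotype difference of HAT2 was -1.21 ± 0.11 (SE, 4 arrays per genotype, limma adjusted p = 0.000272), made up of -2.17 at the base and -0.25 at the tip.

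AT3G61160 had no gradient left in cov. Its signal was 84.3 and 69.6 at the cov base and 71.2 and 100.6 at the cov tip, against 395 and 342 at the wild type base and 72.7 and 93.8 at the wild type tip, so 3 of the 4 groups overlapped and the wild type base alone was high (mean genotype difference -1.03 ± 0.14, limma adjusted p = 0.00218). AT3G25930 had 56.9 and 37.9 at the cov base and 2.2 and 10.4 at the cov tip, against 335 and 228 at the wild type base and 11.7 and 17.4 at the wild type tip. It was the only one of the 9 whose cov tip was more than 0.3 log2 units lower, at -0.57, and its mean genotype difference was -1.43 ± 0.20 (limma adjusted p = 0.00278). These 3 genes were called lower under each of the 15 alternative settings tried.

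STR18, a gene for a rhodanese-type sulfurtransferase, had 99.8 and 108 at the cov base and 47.0 and 49.9 at the cov tip, against 292 and 254 at the wild type base and 41.3 and 55.2 at the wild type tip. Its tips overlapped, and its mean genotype difference was -0.64 ± 0.13 (limma adjusted p = 0.0165). AT2G36320, the brightest of the 9, had 468 and 350 at the cov base against 1244 and 1199 at the wild type base (mean genotype difference -0.68, limma adjusted p = 0.0172). AT5G40960 and AT3G22240 were at -0.66 and -0.67, and AT2G21180 and AT3G62730 were at -0.76 and -0.68. In AT5G40960 the cov tips, at 121.4 and 127.3, lay above the wild type tips at 89.9 and 106.2, while the tips of AT3G22240 overlapped.

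The calls of these last 6 genes hung on single arrays. STR18 lost its call when either array of the cov tip or the first of the wild type base was left out (limma adjusted p = 0.0611 to 0.0778), and AT5G40960 without cov tip array 1 (0.0511). AT2G36320 lost it without cov tip array 1 or any one wild type array (0.0515 to 0.0816), and AT3G22240 without cov base array 2, cov tip array 1, wild type base array 1 or wild type tip array 1 (0.0503 to 0.0944). AT2G21180 kept its call in the omission of cov tip array 1 alone (0.0563 to 0.115 in the others), and AT3G62730 in those of cov base array 1 and wild type tip array 2 (0.111 to 0.177 in the others). Both also lost it with a pseudocount of 1 (0.0630 and 0.0980) and without the filter on dim probe sets (0.0855 and 0.112), and AT2G21180 without the trend in the variance model (0.0586).

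The 14 genes that were higher in cov were above wild type at the tip, as the rule and a positive mean together require. At the base, which is not fixed in this way, 9 of them overlapped, 3 were above and 2 below. Over all tested probe sets 25.3% were above and 21.1% below there without overlap, so nothing is read from these counts. AT5G52760 had 556.5 and 193 at the cov base and 96.0 and 113 at the cov tip, against 286 and 241 at the wild type base and 0.8 and 0.7 at the wild type tip. The base groups overlapped, and the wild type tip was at the bottom of the scale, so no fold is given. The mean genotype difference was 1.75 ± 0.25 (limma adjusted p = 0.00305), a size that depends on the pseudocount, since it was 3.12 with a pseudocount of 1 and 0.98 with the table median.

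AT1G65490 had 928 and 496 at the cov base and 414 and 489.5 at the cov tip, against 482 and 469 at the wild type base and 51.4 and 62.6 at the wild type tip. The cov tip had thus come to the level of the wild type base. Its mean genotype difference was 1.63 ± 0.17 (limma adjusted p = 0.000476). AT5G19240 had 1205 and 728 at the cov base and 389 and 455 at the cov tip. In wild type it had 669.8 and 603 at the base and 69.8 and 71.7 at the tip. Its cov tip stayed below the wild type base, and its mean genotype difference was 1.47 ± 0.15 (limma adjusted p = 0.000382). Both genes were also somewhat higher at the cov base, by 0.50 and 0.55 on the log2 scale. Neither base difference was called (limma adjusted p = 0.301 and 0.179).

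ECS1, a gene for a cell wall protein linked to attack by the bacterium Xanthomonas, had 887 and 1058 at the cov base and 381 and 373 at the cov tip, against 1334 and 684.5 at the wild type base and 52.6 and 85.9 at the wild type tip. Its base groups overlapped with a difference of 0.02, and its cov tip was 2.29 log2 units above the wild type tip (mean genotype difference 1.16 ± 0.20, limma adjusted p = 0.00821). AT2G41090 had the highest mean signal of the 58, with 2051 and 2090 at the cov base, 765 and 842 at the cov tip, 2352 and 1821 at the wild type base and 257.5 and 235 at the wild type tip. Its difference was 0.00 at the base and 1.66 at the tip, and the mean was 0.83 ± 0.11 (limma adjusted p = 0.00184).

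BGLU45, a beta-glucosidase known to act on glucosides of lignin precursors, had 316 and 313 at the cov base and 84.5 and 106 at the cov tip, against 443.5 and 337 at the wild type base and 20.7 and 23.9 at the wild type tip. Its mean genotype difference was 0.68 ± 0.13 (limma adjusted p = 0.0135, and 0.0751 without cov tip array 2), made up of -0.29 at the base, where cov was below wild type without overlap, and 1.64 at the tip. The next gene along the chromosome, BGLU46, was higher in cov as well (mean 0.84, limma adjusted p = 0.0337). It was not base-high by the rule, with gradients of 1.37 in cov and 0.90 in wild type. Its cov minus wild type difference was 1.08 at the base and 0.60 at the tip.

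The other genes higher in cov were AT3G48640 (1.37), AT3G60420 (1.27), AT1G69730 (1.12), AT3G56410 (0.83), AT1G49050 (0.78), AT1G16260 (0.76), AT3G53980 (0.67) and AT5G42050 (0.65), as mean genotype differences on log2(signal + 12). Several of these sizes rest on the pseudocount because the wild type tip is dim. With a pseudocount of 1 and with the table median they were 2.14 and 0.79 for AT3G48640, 2.17 and 0.65 for AT3G60420, and 1.62 and 0.35 for AT3G56410. With the table median AT1G69730 was at 0.61, AT1G16260 at 0.44 and BGLU45 at 0.38. AT3G60420 had 331 and 219.9 at the cov base, 53.9 and 90.7 at the cov tip, 239 and 280.3 at the wild type base and 3.1 and 2.3 at the wild type tip. AT3G56410 likewise had 1.4 and 6.1 in wild type tips, against 42.3 and 40.6 in cov tips. Of the 14 genes, 9 were called higher under each of the 15 alternatives.

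The remaining 5 were not. BGLU45 lost its call as given above and with the table median as pseudocount (0.0675). AT3G48640 lost its call in 6 of 8 omissions of an array, all but those of cov base array 2 and wild type tip array 1 (0.0670 to 0.125). AT3G53980 kept it in the omission of wild type tip array 2 alone (0.0603 to 0.171 in the others). AT1G69730 lost it without either cov tip array, wild type base array 2 or wild type tip array 2 (0.0534 to 0.0723), and AT1G16260 without cov base array 1, cov tip array 2, wild type base array 2 or wild type tip array 1 (0.0566 to 0.0999). Both lost it without the filter on dim probe sets (0.0657 and 0.0601). AT3G48640 and AT3G53980 also lost theirs without that filter (0.0951 and 0.0960), with the table median as pseudocount (0.0816 and 0.0802) and without the trend (0.0621 and 0.0830). AT3G48640 lost it with a pseudocount of 1 (0.0857), and AT3G53980 with median centring (0.0620).

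The 35 genes whose mean genotype difference was not called ran from -0.73 for AT3G49790 to 0.97 for STZ. This range takes in called genes, such as STR18 at -0.64 and AT2G41090 at 0.83, so a gene without a call is not always of middle size. The SE was 0.40 for STZ and 0.11 for AT2G41090, and 0.19 for AT3G49790 and 0.13 for STR18. CML41, a calmodulin-like calcium sensor, moved at both ends, with 91.7 and 52.8 at the cov base and 66.9 and 70.6 at the cov tip, against 185 and 255 at the wild type base and 19.2 and 31.5 at the wild type tip. The cov arrays of both parts formed a single middle level, below the wild type base and above the wild type tip, by -1.48 and 1.13 on the log2 scale. AT2G21185 had 504 and 458 at the cov base and 199.5 and 236 at the cov tip, against 996 and 894 at the wild type base and 117 and 129.6 at the wild type tip, without overlap at either end. It lies next to AT2G21180, and this is the 1 pair of members that the search for direct neighbours in the annotation returned. Their forms differ, since AT2G21180 had overlapping tips (69.6 and 33.8 in cov, 46.4 and 57.1 in wild type) and AT2G21185 did not.

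AT1G80170 had the steepest wild type gradient of the set, 5.45. Its signals were 368 and 355 at the cov base and 39.3 and 62.9 at the cov tip, against 1468 and 1520.0 at the wild type base and 30.7 and 15.6 at the wild type tip, with no overlap at either end. AT1G21520 had 107.8 and 135.3 at the cov base and 27.5 and 28.4 at the cov tip, against 504.7 and 160.3 at the wild type base and 15.7 and 3.1 at the wild type tip. Its groups did not overlap at either end, although the wild type base arrays stood far apart. The closely numbered genes AT1G49200 and AT1G49210 both leaned to the base, with cov minus wild type differences of -1.18 and -1.68 there and 0.48 for each at the tip. PPDK, whose enzyme makes phosphoenolpyruvate from pyruvate, had 137 and 81.3 at the cov base and 21.9 and 42.2 at the cov tip, against 179.8 and 213 at the wild type base and 18.4 and 11.7 at the wild type tip. The bZIP transcription factor gene bZIP58 shifted by near equal amounts, -0.73 at the base and 0.69 at the tip. PPDK and bZIP58 were thus close to the middle, with mean genotype differences of -0.07 and -0.02.

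**Figure D3:**
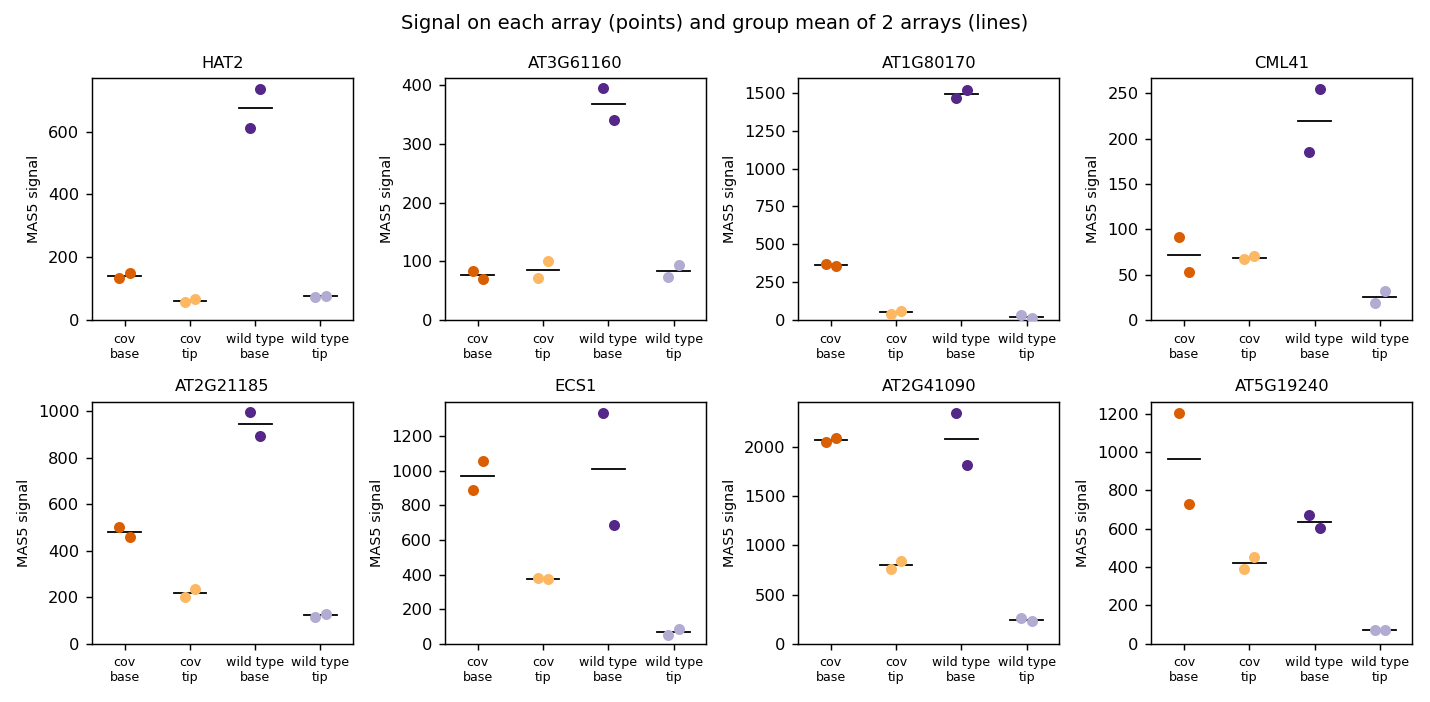
MAS5 signal (linear) of 8 genes on each array (points) with the mean of 2 arrays (lines), for cov base, cov tip, wild type base and wild type tip. In HAT2 and AT3G61160 the cov base stands far below the wild type base, in CML41 and AT2G21185 both ends differ, and in ECS1, AT2G41090 and AT5G19240 the cov tip stands above the wild type tip.

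**Figure D4:**
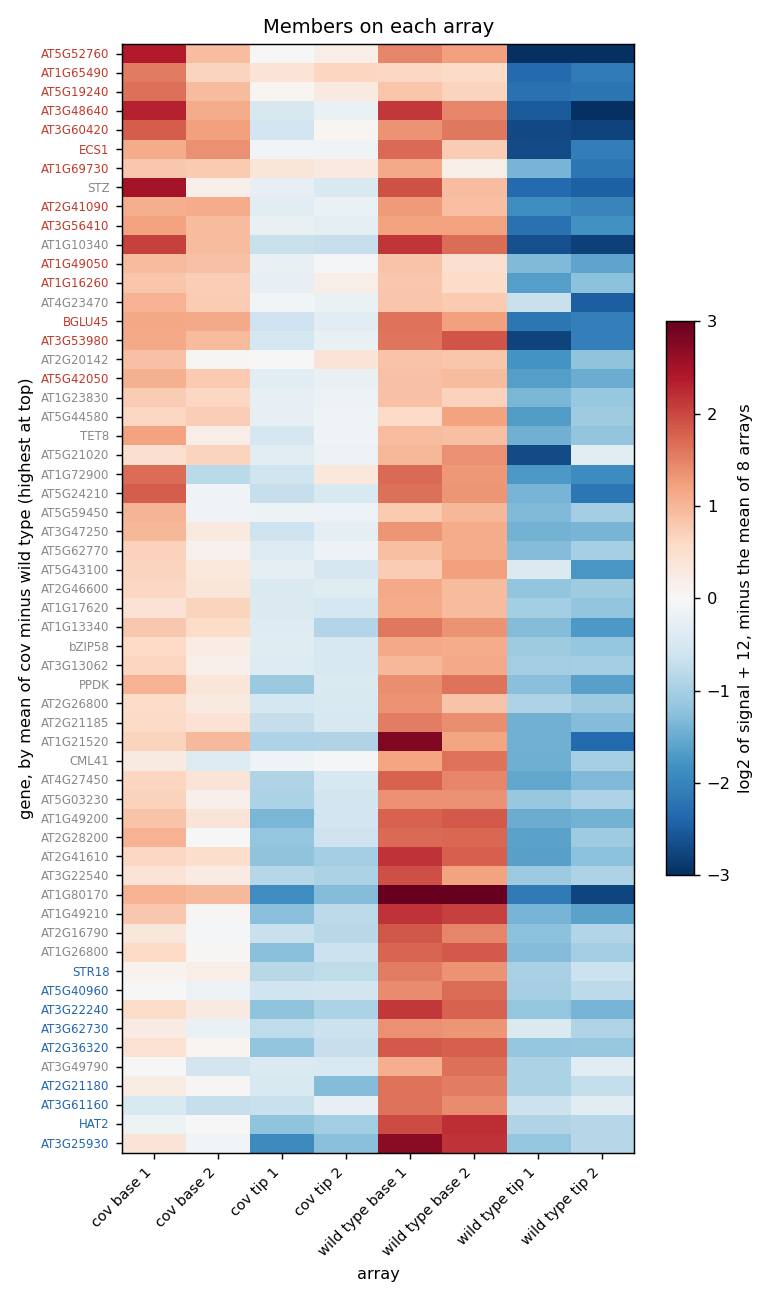
Each of the 58 genes (rows, ordered by mean genotype difference with the highest in cov at the top) on the 8 arrays (columns), as log2(signal + 12) minus the gene's mean over 8 arrays, with colour ending at 3 units either way; gene names are red or blue where the mean was called higher or lower in cov. The top rows are pale in cov tips and dark blue in wild type tips, and the bottom rows are pale at the cov base and red at the wild type base.

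Several members differed strongly between the replicate arrays of the cov base. STZ (ZAT10), a zinc finger repressor gene, had 1536 and 296 at the cov base and 218.5 and 189 at the cov tip. In wild type it had 1020.2 and 515 at the base and 42.6 and 38.6 at the tip. AT1G72900 had 291 and 41.6 at the cov base, with wild type base arrays at 293 and 221, of which the cov range took in the lower one. Its tips were at 50.7 and 106 in cov and at 16.5 and 13.4 in wild type. In all, 9 of the 58 genes were more than 2-fold apart on signal + 12 at the cov base, each with array 1 higher, against 2.73% of all tested probe sets.

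The gap was not limited to those 9 genes. Array 1 was the higher cov base array in 50 of the 58 (86.2%), by a median of 0.33 log2 units, against 49.4% and 0.00 over all tested probe sets. Among the 153 base-high genes that kept their gradient it was higher in 66.7%, by a median of 0.18. In cov tips array 1 was the higher one in 16 of the 58 (27.6%), by a median of -0.17. In wild type it was higher in 39 (67.2%) at the base and 22 (37.9%) at the tip, by medians of 0.13 and -0.14. The shares at the cov tip, wild type base and wild type tip were 51.9%, 44.2% and 46.8% over all tested probe sets. Among the kept genes they were 22.9%, 71.2% and 39.9%, by medians of -0.18, 0.17 and -0.07. The rule used group means and not these gaps, but the gaps are not shown to be independent of the choice, since membership itself changes when an array is left out. Members shared differences between replicate arrays, with the widest median at the cov base, and the kept genes leaned the same way in every group. What caused these differences was not tested.

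**Figure D5:**
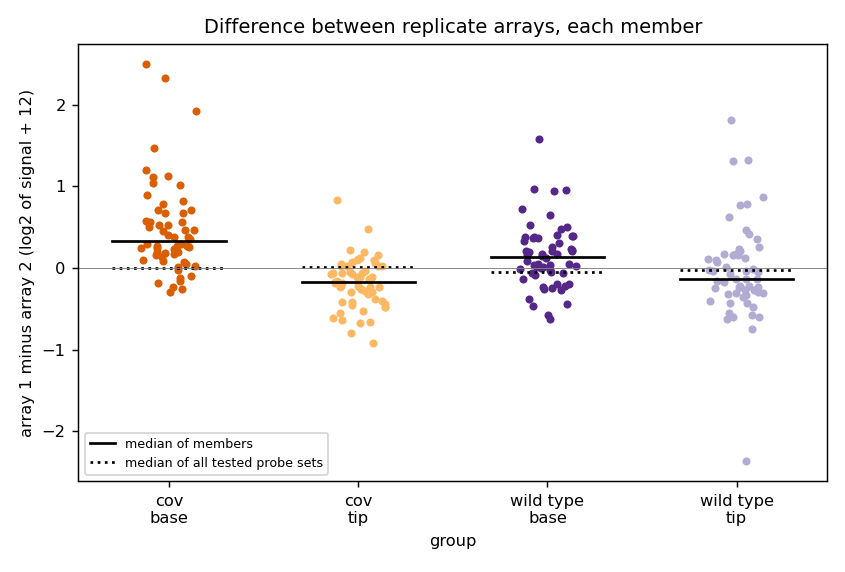
Difference of array 1 from array 2 on log2(signal + 12) within each group, 1 point per gene for the 58 members; solid lines are medians of the members and dotted lines medians of the 15923 tested probe sets. At the cov base most points lie above 0 and 9 exceed 1.

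Cov base array 2 therefore weighs on the set. Without it, the rule gave 39 genes, 34 of them among the 58, and STZ, AT1G72900, AT1G10340, TET8 and AT2G20142 left the uncalled group as higher in cov (limma adjusted p = 0.00229, 0.0388, 0.00381, 0.0228 and 0.0211). TET8, a gene for a tetraspanin of the cell membrane, had 1948 and 953.8 at the cov base and 584 and 776 at the cov tip, against 1595 and 1580.0 at the wild type base and 297 and 361 at the wild type tip. Without cov base array 1 the rule gave 78 genes, 57 of them among the 58. In wild type tips 4 members were more than 2-fold apart (AT3G48640, AT5G21020, AT4G23470 and AT5G43100), against 1.51% of all tested probe sets, and 34 of the 58 had a mean signal under 50 there. Of these 4, AT4G23470 was called higher in cov without wild type tip array 1 (limma adjusted p = 0.00124) and AT5G21020 without wild type tip array 2 (limma adjusted p = 0.0126).

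The base-high genes with the gradient kept in cov give the setting. Their median cov gradient was 1.83 and their median wild type gradient 2.56, and the difference of 0.91 was smaller than the 1.72 of the 58 by choice. Their mean genotype difference was called higher in cov for 19 of 153 (12.4%) and lower for 7 (4.58%), beside 24.1% and 15.5% of the 58. Nothing particular to the 58 is read from this, for the reason given above. The 3 xylan genes with a named probe set, IRX15, IRX15-L and GUT2, were all in the kept set, with cov gradients of 3.07, 2.29 and 2.51 and wild type gradients of 4.52, 3.37 and 3.36. The 3 xylan genes were the only tested genes among 22 listed for cellulose and xylan of secondary walls. HCT, of lignin precursor synthesis, was kept too, at 1.25 in cov and 2.19 in wild type. The other tested gene of the lignin list, PRX52, was not base-high by the rule, with gradients of 1.14 in cov and 1.02 in wild type. The mean genotype difference was 1.03 for PRX52 (limma adjusted p = 0.00911) and -0.13 for HCT (0.613).

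Named gene groups covered few of the 58. Only 9 carry a gene symbol other than the locus name, and 49 are given by locus alone, without a role in the annotation used here. Of 45 gene lists 34 had a tested gene and 6 had a member, with 0 lists holding 3 or more. The list of auxin response genes had 3 tested genes. HAT2 and GH3.3, which conjugates auxin to amino acids, were lower in cov by the mean genotype difference (-1.21 and -1.53, limma adjusted p = 0.000272 and 0.0189), and WES1 was at 0.15 (0.651). GH3.3 was no member, since its wild type gradient was 0.77 ± 0.44. The list on touch, wounding and early stress had STZ as its sole tested gene, which was not called. The others with a member were words in symbols, namely zinc finger (STZ again, the sole tested gene), transcription factor (bZIP58, 1 of 29 tested), glycosyl hydrolase (BGLU45, 1 of 24) and calcium (CML41, 1 of 7). Among those the mean genotype difference was called higher for 1 transcription factor and 5 glycosyl hydrolase genes, BGLU45 being 1 of the 5. It was called lower for 0 genes of either list. Over all tested probe sets 3.33% were higher and 1.3% lower, and the lists were not tested as sets. The median mean genotype difference of the 3 auxin response genes, HAT2 among them by choice, was -1.21, against 0.02 over all tested probe sets. A list by the word auxin in symbols and synonyms had 4 tested genes with a median of 0.13, and the mean genotype difference of none of the 4 passed the test by limma.

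On the chromosomes the members were spread over all 5 nuclear ones, with 18, 11, 13, 3 and 13 genes on chromosomes 1 to 5. Chromosome 4 held 5.17% of the members, 15.7% of the kept base-high genes and 14.7% of all named genes with a mean signal of at least 50, and these shares were not tested. Of 31 direct neighbours of members with a tested, named probe set, 29 were not members. By the mean genotype difference 4 of those 29 were called higher in cov (AT5G52750, AT1G65500, BGLU46 and AT5G19250) and 0 lower. Over all tested probe sets 3.33% were higher and 1.3% lower, and the neighbours were not tested as a set. AT1G65500, beside AT1G65490, was the highest of the 4 at 2.09 (limma adjusted p = 3.29e-05). AT5G52750, beside AT5G52760, missed the ratio limit narrowly and was at 1.10 (limma adjusted p = 0.0309). Near-identical neighbouring genes could share probes, and the probe sequences were not used here.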

How the data were processed

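What the authors deposited is a linear intensity, the MAS5 signal named in the submitters' processing notes. No version or detection call was used here. With 2% trimmed from either end, each array averaged 100, and the values were not rescaled. Genes came from GEO's platform annotation, brought up to date by gene identifier through RefSeq (assembly TAIR10.1), which matched all 58 members. Control probe sets (64) were left out, 12 was added before log2, and 15923 of 22746 probe sets with a mean signal of at least 21.4 (the 30th percentile) were tested. The pseudocount draws differences of dim genes toward 0.

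A model of 4 group means was fitted with limma 3.58.1 in R 4.3.3 (lmFit, eBayes with trend, 4 residual degrees of freedom), with two-sided p-values adjusted by Benjamini-Hochberg at 0.05. On simulated data of 15923 probe sets, mean genotype differences were recovered for 32% of genes at 1.5-fold, 78% at 2-fold, 100% at 3-fold and 98% at 4-fold, with 3 false calls among 157. The simulated noise was normal and independent. At each fold 50 probe sets with a mean signal of at least 50 were shifted equally at base and tip. The members differ unequally at base and tip, so these rates are not read as rates for the members.

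The members and the gene lists were chosen with earlier results of these data known. Lists by word were matched to gene symbols and synonyms, since no gene descriptions were at hand. Named are the 12 members of largest gradient difference, up to 10 highest and 10 lowest called by mean genotype difference (9 were called lower), neighbours and members at the limits of the rule. The other called members and those with a symbol were named after their values were seen, as were genes named for replicate gaps and list genes that are no members. The counts for unannotated probe sets, for replicate gaps and for genes that kept their gradient were added after the data were seen. No sequences were used.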

Additional observations from a re-analysis of the deposited data

Results flagged for a closer look

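For 37 of the 58 genes the cov minus wild type difference at the base differed from that at the tip by limma (adjusted p under 0.05, 1.04% of all tested probe sets in that direction). The rule chose the genes by this difference, so the count describes the choice and is not evidence for it.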

How the results depend on the processing

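The number of genes by the rule was 58. It was 29 with the table median (47.4) as pseudocount, 98 and 34 with a wild type limit of 1.5 and 2.5, and 24 and 98 with a ratio limit of 0.4 and 0.6, as the limits themselves imply. It ranged from 39 to 78 with 1 array left out. Of the 58, 28 were kept with the table median as pseudocount and 55 with a pseudocount of 1. With the table median as pseudocount, members called by the mean genotype difference came to 11 higher and 15 lower in cov, against 14 higher and 9 lower. Which direction had more calls thus depended on the pseudocount, and the cause was not tested. With 1 array left out, the counts ranged from 9 to 18 higher, 4 to 12 lower and 15 to 24 in all. Over all probe sets, calls were 126 lower and 484 in all without the filter on dim probe sets, which tests more of them, and with 1 array left out from 268 to 555 higher, 70 to 207 lower and 339 to 762 in all. Of the 23 calls among members 12 held under all 15 alternatives, and 0 of the 600 values of 40 named members turned direction with a call. The arrays share replicate numbers, but the correlations of deviations between groups were -0.04 to 0.16, so the numbers were not taken as pairs. With the replicate block, 24 members were called (15 higher, 9 lower) and 736 probe sets. Dim wild type tips limit the folds of genes near the bottom of the scale. Promoter motifs were planned and not run.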
